A study of Mus musculus with 2 samples.

Results

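The SLC25 genes encode the mitochondrial carrier family, proteins that move small solutes across the inner membrane of mitochondria. They were taken as the rows of the expression table whose symbol is Slc25a followed by a number, which gave 44 of 31920 listed genes. Polyadenylated RNA from the cardiac left ventricle was sequenced from male 129-SvEv mice aged 10 weeks. There was 1 wildtype library and 1 from the animal labelled Lamp2 knockout. Both groups share strain, sex, age and tissue, and no treatment is recorded. Lamp2 encodes a lysosomal membrane protein, and the labels do not describe the extent of the deletion. Lamp2 itself had 990 wildtype reads and 986 in the other library, so its level does not check the label. Directions below therefore refer to the "knockout-labelled library".

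The wildtype library held 8410593 reads over listed genes and the knockout-labelled library 8773820. Levels are given as reads per 1000000 of these totals (RPM). A count of 0 allows up to 3 reads, which is 0.357 RPM in the wildtype and 0.342 RPM in the other library. With 1 animal a group no spread between animals is known, so the genotypes were not tested. Intervals in parentheses are 95% intervals of counting error only, and a ratio is called level where its interval held 1. Markers of ventricular muscle were abundant, with 8 of 8 measured and sums of 53433 RPM in the wildtype and 52432 RPM in the knockout-labelled library. Rows of the mitochondrial genome took 26.5% of wildtype reads and 16.2% of the others, so the remaining rows share a larger part of the total in the knockout-labelled library. The ranges called rescaled below divide ratios by the median ratio, by a trimmed mean of log ratios, or by the total without mitochondrial rows and the 10 most abundant genes (the reduced total). These shift log2 ratios down by 0.12, 0.12 and 0.18.

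Each mitochondrial carrier is built from repeats of a similar segment, and each repeat carries a short signature that begins with proline, then an acidic and a basic residue. The carriers differ in what they move. Adenine nucleotide carriers bring ADP in and ATP out, the phosphate carrier supplies phosphate for ATP synthesis, and the carnitine carrier brings fatty acids in for oxidation. Others move carboxylates, amino acids, iron or cofactors, and for some the solute is not known. In the heart, where mitochondria fill much of the muscle cell, the nucleotide and phosphate carriers serve ATP export to the contractile proteins.

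In coding sequences of the GENCODE M21 annotation, the signature (proline, any, acidic, any, any, basic) was found 3 times in 27 of the 44 genes, 2 times in 11, 1 time in 5, and 0 times in Slc25a46, which is placed in the outer membrane. The coding stretches of the signatures of both adenine nucleotide carriers are shown because these genes are the most alike of the carrier pairs aligned. Their proteins are identical at 267 of 298 aligned positions (89.6%). Stretches are written 5′ to 3′, with capitals on the codons of the proline, the acidic and the basic residue. They lie at coding bases 82 to 99, 397 to 414 and 688 to 705 in both genes, counted from 1 at the start codon.
Slc25a4, repeat 1: CCGatcGAGagggtcAAA
Slc25a5, repeat 1: CCCatcGAGagggtcAAG
Slc25a4, repeat 2: CCGctgGACtttgctAGG
Slc25a5, repeat 2: CCTcttGATtttgccCGT
Slc25a4, repeat 3: CCGtttGACactgttCGT
Slc25a5, repeat 3: CCTtttGACacggttCGC

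Promoter windows from 250 bases before to 50 bases after a RefSeq start (GRCm38.p6) were given for 34 of the 44 genes, 43 windows in all. Each motif was searched on both strands, and a window was counted once however many matches it held. GGGCGG, the GC box, was in 28 of 31 windows of carriers with at least 5 RPM (90.3%), against 64.6% of 9178 windows of other genes at that level and 35.7% of all 32851 windows. CCAAT was in 61.3% of the 31 carrier windows against 36.9% of the 9178. TATAAA was in 0 of the 31 against 7.13%. The cAMP response element TGACGTCA was in windows of Slc25a25 and Slc25a36, a share of 6.45% against 3.08%. CACGTG was in 16.1% of the 31 against 10.2%, and CCGGAAG in 19.4% against 17.5%. The 8-letter core CGCATGCG and the 9-letter TCAAGGTCA were in none (0) of the 31, against 4.03% and 0.251% of the 9178. Both were also in none (0) of the 43, against 1.87% and 0.423% of all windows. Windows of 1 gene can overlap, and a match shows letters, not a bound site.

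The windows of the 4 carriers at least 2-fold apart between the libraries are shown, with capitals on GGGCGG and TGACGTCA in either orientation. All are on the minus strand and are written in the direction of the gene. The Slc25a25 window shown is that of a start inside the gene, which holds both motifs; its outermost start holds 2 GC boxes and no TGACGTCA. The Slc25a22 window is that of its outermost start.
Slc25a25, chr2:32424017-32424316: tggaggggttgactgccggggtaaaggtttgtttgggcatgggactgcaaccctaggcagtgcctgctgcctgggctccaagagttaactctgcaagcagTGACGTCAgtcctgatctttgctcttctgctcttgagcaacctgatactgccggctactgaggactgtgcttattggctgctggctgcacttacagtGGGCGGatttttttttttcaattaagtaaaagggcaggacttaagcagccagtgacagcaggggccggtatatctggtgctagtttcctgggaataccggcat
Slc25a30, chr14:75786988-75787287: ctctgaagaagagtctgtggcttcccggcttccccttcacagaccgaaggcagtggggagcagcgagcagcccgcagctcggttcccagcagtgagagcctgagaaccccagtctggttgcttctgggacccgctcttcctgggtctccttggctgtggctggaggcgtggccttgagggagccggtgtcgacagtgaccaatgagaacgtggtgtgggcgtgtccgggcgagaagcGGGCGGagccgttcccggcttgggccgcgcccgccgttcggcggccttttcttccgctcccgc
Slc25a42, chr8:70212232-70212531: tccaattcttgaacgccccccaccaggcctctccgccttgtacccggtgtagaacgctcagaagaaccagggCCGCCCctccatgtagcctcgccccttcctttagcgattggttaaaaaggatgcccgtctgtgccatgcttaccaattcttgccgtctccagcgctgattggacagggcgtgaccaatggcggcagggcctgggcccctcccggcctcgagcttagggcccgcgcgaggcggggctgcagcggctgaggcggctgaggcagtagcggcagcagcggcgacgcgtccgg
Slc25a22, chr7:141437825-141438124: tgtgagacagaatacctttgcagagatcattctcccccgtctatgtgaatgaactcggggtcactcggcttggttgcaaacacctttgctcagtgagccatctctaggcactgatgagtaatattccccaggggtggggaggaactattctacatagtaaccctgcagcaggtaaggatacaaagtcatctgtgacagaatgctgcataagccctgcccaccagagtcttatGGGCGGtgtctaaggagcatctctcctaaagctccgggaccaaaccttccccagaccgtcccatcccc

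One carrier dominated the family in this tissue. Slc25a4, the adenine nucleotide carrier of heart and skeletal muscle (chromosome 8, 46207341 to 46211009, mm10), had 33412 wildtype reads and 44980 in the knockout-labelled library. It took 61.2% (60.8 to 61.6) of all SLC25 reads in the wildtype and 66.2% (65.8 to 66.6) in the other library. With Slc25a3, the phosphate carrier, the shares were 73.2% and 78.9%. The family as a whole took 0.649% (0.644 to 0.654) of wildtype reads and 0.774% (0.769 to 0.780) of the others, a ratio of 1.19 (1.18 to 1.21). Without Slc25a4 and Slc25a3 the sum was 1736 RPM in the wildtype and 1631 RPM in the knockout-labelled library, a ratio of 0.939 (0.918 to 0.961). On the RPM scale the excess of the family sum was thus in its most abundant genes, and the remaining members summed to less. The sums were not rescaled, and each rescaling would lower both ratios.

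Between genes, levels were compared as reads per kilobase of exon and 1000000 reads. Slc25a4 stood first at 1688 in the wildtype and 2179 in the knockout-labelled library. Slc25a11, which exchanges oxoglutarate for malate, was next at 193 and 216, followed by Slc25a3 at 141 and 178. Slc25a34, a carrier without an established solute, followed at 113 and 65.1. Slc25a39, needed for glutathione in mitochondria, stood at 52.7 and 62.7, and the carnitine carrier gene Slc25a20 at 34.5 and 26.6. Of the 10 highest genes by this measure, 9 were shared by both libraries: Slc25a42 was ninth in the wildtype and fifteenth in the other. The other 34 genes were at or below 11.7 in the wildtype.

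**Figure D1:**
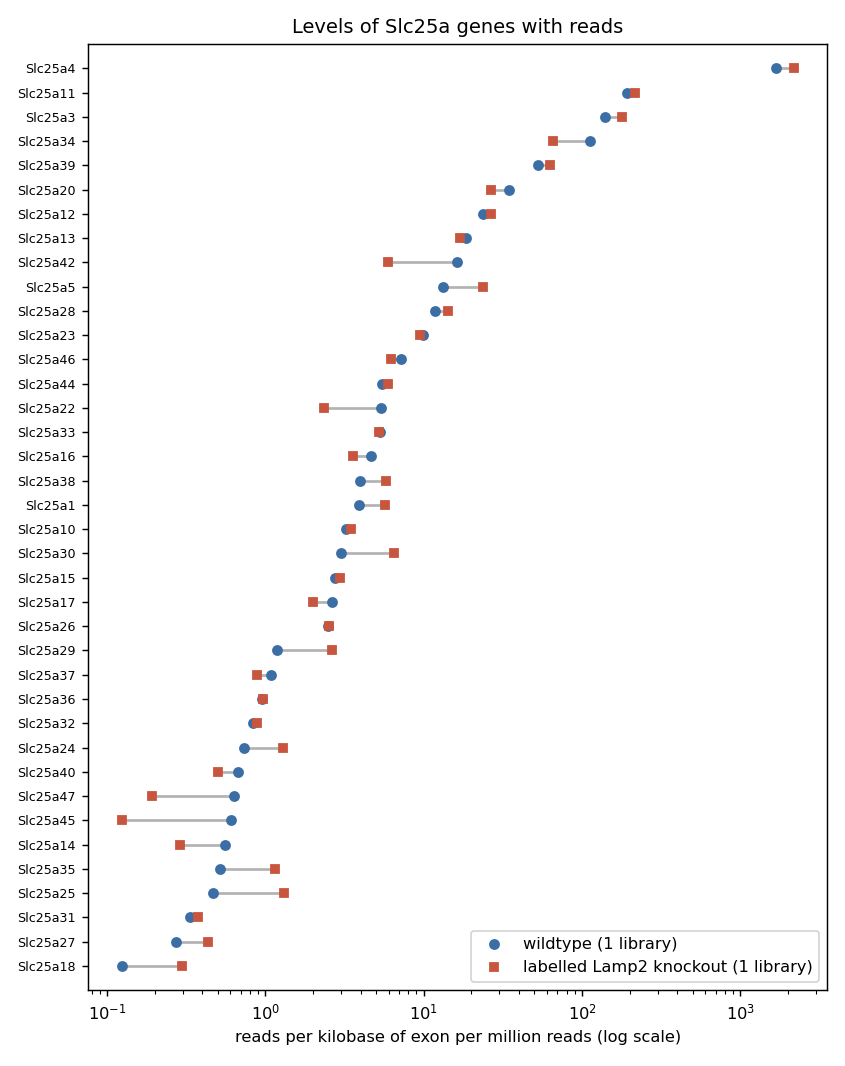
Levels of 38 SLC25 genes with reads, as reads per kilobase of exon per 1000000 reads on a log axis, in the wildtype library (circles) and the library labelled Lamp2 knockout (squares), each 1 animal. Slc25a4 stands apart at 1688 and 2179, and Slc25a42, Slc25a22 and Slc25a34 show lower squares while Slc25a25, Slc25a30 and Slc25a5 show higher ones; 5 genes at 0 reads are not drawn.

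A ratio was formed for the 31 genes with at least 5 RPM in either library. The lowest of these by their higher library were Slc25a32 at 5.36 and Slc25a40 at 5.59 RPM, and the first below the minimum were Slc25a24 at 4.45 and Slc25a35 at 4.22 RPM. A gene was called when log2 of the knockout-labelled over the wildtype RPM, with 1 RPM added to each, reached 1 in size. By this rule 2 of 31 carriers were higher (6.45%), against 3.35% of all 10209 genes at that level, and 2 of 31 were lower (6.45%), against 2.37%. At 1.5-fold 4 carriers were higher (12.9%, against 12.8% of all genes) and 3 were lower (9.68%, against 7.3%). The median log2 ratio of the 31 carriers was 0.06, and it was −0.04, −0.04 and −0.10 under the rescalings. All genes at that level had a median of 0.11, and of 0.0, −0.0025 and −0.063 under the rescalings in the same order. Log2 ratios above 0 were found for 18 of 31 carriers (58.1%, against 61.2% of all genes). Under the rescalings they were found for 13, 13 and 10 carriers, and the share of all genes was not counted there. The family thus had no common direction, and its shares past each limit rest on few genes. In bulk tissue, fewer cells of a type and less RNA per cell cannot be told apart.

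The counting interval of the ratio lay above 1 for 12 carriers, below 1 for 6 and held 1 for 13. Under each of the 3 rescalings it stayed above 1 for 6, namely Slc25a4, Slc25a3, Slc25a5, Slc25a25, Slc25a29 and Slc25a30. Those below 1 included Slc25a16, Slc25a20, Slc25a22, Slc25a34 and Slc25a42, and all 6 intervals below 1 stayed there under the 3 rescalings. The intervals of Slc25a13 and Slc25a46, which held 1 in RPM, also lay below 1 under each rescaling, which made 8. How many of all genes had intervals that left out 1 was not counted, in RPM or rescaled. In RPM, 61.2% of all genes at 5 RPM or more had log2 ratios above 0. These counts of carriers are therefore not set against a background.

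**Figure D2:**
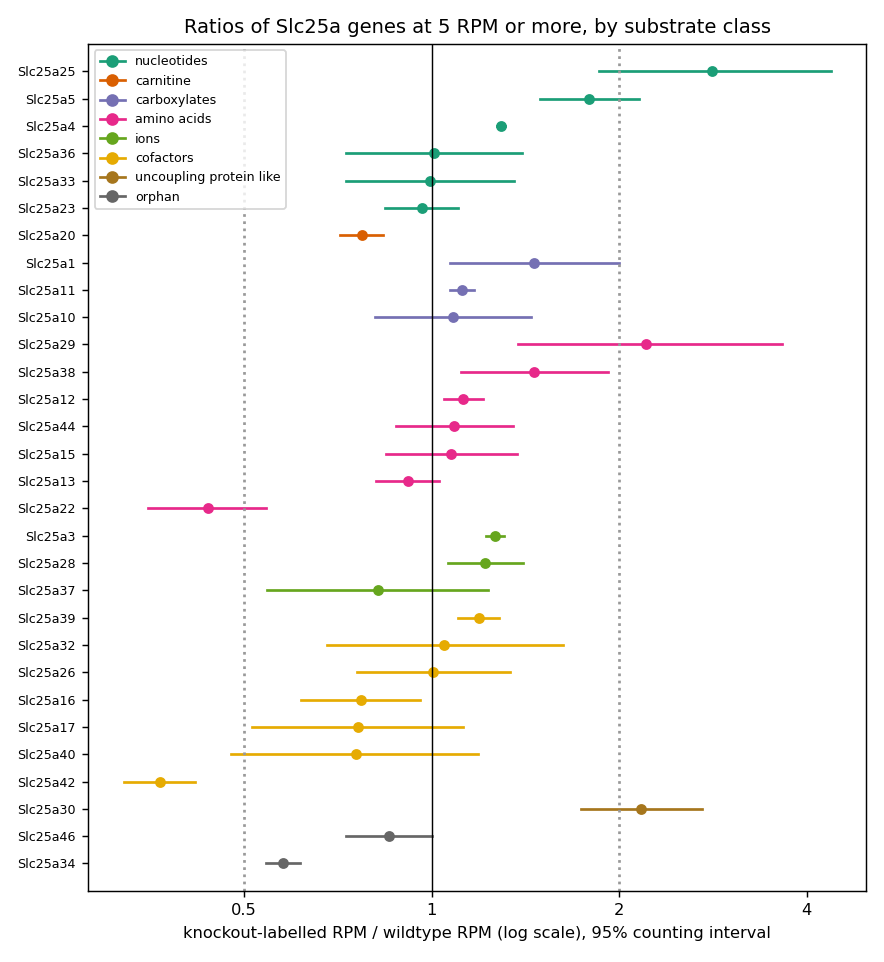
Ratio of knockout-labelled to wildtype RPM for 30 of the 31 SLC25 genes at 5 RPM or more, on a log axis, coloured and grouped by what the carrier moves; bars are 95% counting intervals from 1 library a group, and dotted lines mark 2-fold. Slc25a25, Slc25a29 and Slc25a30 lie right of the upper line and Slc25a42 and Slc25a22 left of the lower one, and the bars of Slc25a25, Slc25a29, Slc25a30 and Slc25a5 cross the upper line.

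On the RPM scale, each measured carrier of nucleotides was level or higher in the knockout-labelled library. Slc25a4 was at 3973 RPM in the wildtype and 5127 RPM in the other library, a ratio of 1.29 (1.27 to 1.31, rescaled 1.14 to 1.19). Slc25a5, the adenine nucleotide carrier of growing and non-muscle cells (chromosome X, 36795652 to 36798806), was at 21.8 and 39.0 RPM, a ratio of 1.79 (1.49 to 2.16). Slc25a5 was therefore higher by more than Slc25a4 but remained far below it: per exon length, Slc25a4 was 128 times as high in the wildtype and 92.0 times in the other library. The annotation holds 2 processed copies of Slc25a5 that match its coding sequence at 96.8% and 98.3%, so its reads are uncertain.

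Slc25a25, an ATP-magnesium and phosphate carrier that responds to calcium (chromosome 2, 32414487 to 32451470), had 31 wildtype reads and 91 in the knockout-labelled library. These are 3.69 and 10.4 RPM, a ratio of 2.81 (1.85 to 4.38, rescaled 2.48 to 2.60). Exons of Naif1 on the opposite strand cover 379 bases (4.82%) of Slc25a25, and Naif1 had 17 and 44 reads, a ratio of 2.48 (1.39 to 4.63). Whether strand was used in counting is not known, and reads in the shared exons cannot be told apart. Its close relative Slc25a23 was level at 52.2 and 50.3 RPM (ratio 0.963, 0.842 to 1.10), and the share of Slc25a23 in the reads of both went from 93.4% (90.8 to 95.5) in the wildtype to 82.9% (79.4 to 86.0). Slc25a24, of the same kind, had 21 and 39 reads, and Slc25a41 had 0 in both. The pyrimidine nucleotide carriers Slc25a33 and Slc25a36 were at 9.99 and 9.92 RPM and at 9.16 and 9.23 RPM. Slc25a33 took 52.2% of the reads of both in the wildtype and 51.8% in the knockout-labelled library, with intervals of 44.2 to 60.1 and 44.0 to 59.5 that overlap almost wholly. Per exon length, Slc25a33 was 5.55 times as high as Slc25a36 in the wildtype and 5.46 times in the other library. With the longest transcript as length, they stood at 5.29 and 1.75 in the wildtype. Exons of Gm13068 on the opposite strand cover 281 bases (14.9%) of Slc25a33. Slc25a31, the adenine nucleotide carrier of germ cells, had 6 and 7 reads. The 6 measured nucleotide carriers had a median log2 ratio of 0.19 (0.01 to 0.08 rescaled).

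The carnitine carrier was lower together with the enzymes on either side of it. Slc25a20, which exchanges acylcarnitine for carnitine (chromosome 9, 108662098 to 108684641), was at 167 RPM in the wildtype and 129 RPM in the knockout-labelled library, a ratio of 0.771 (0.713 to 0.835, rescaled 0.679 to 0.712). Cpt1b, the muscle enzyme that makes acylcarnitine, was at 776 and 523 RPM, and Cpt2, which turns it back inside the mitochondrion, at 108 and 72.7 RPM. Cpt1a, the liver-type enzyme, was at 57.8 and 23.3 RPM, a ratio of 0.402 (0.340 to 0.475). Of 5 measured carnitine partners, 0 had a log2 ratio above 0 (against 61.2% of all genes) and 1 was at least 2-fold lower (against 2.37%). Their median was −0.56 (−0.74 to −0.67 rescaled). Crat, carnitine acetyltransferase, was level at 354 and 347 RPM, but with log2 ratios of −0.21 to −0.14 rescaled.

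Carboxylate carriers were slightly higher or level in RPM, with a median that turned below 0 under 1 rescaling. Slc25a11 was at 409 RPM in the wildtype and 458 RPM in the knockout-labelled library, a ratio of 1.12 (1.07 to 1.17), but 0.985 to 1.03 rescaled. Slc25a1, the citrate carrier, was at 8.44 and 12.3 RPM, a ratio of 1.46 (1.07 to 2.0). Slc25a10, the dicarboxylate carrier, was level at 11.2 and 12.1 RPM, and Slc25a21, which moves oxoadipate, had 0 reads in both libraries. The median over 3 genes was 0.16 (−0.02 to 0.04 rescaled, so its sign depends on the scaling).

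Amino acid carriers went in both directions. Slc25a22, which brings glutamate in with a proton (chromosome 7, 141429749 to 141437874), had 272 wildtype reads and 124 in the knockout-labelled library. These are 32.3 and 14.1 RPM, a ratio of 0.437 (0.350 to 0.542, rescaled 0.385 to 0.403). Its relative Slc25a18 had 2 and 5 reads, so Slc25a22 held nearly all reads of this pair in both libraries. Slc25a29, a carrier of basic amino acids, had 26 and 60 reads, a ratio of 2.21 (1.37 to 3.65), and its log2 ratio of 0.94 with the pseudocount is under the rule. Slc25a38, the glycine carrier used for haem synthesis, was at 10.9 and 16.0 RPM, a ratio of 1.46 (1.11 to 1.92, rescaled 1.28 to 1.35).

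The aspartate and glutamate carriers of the malate-aspartate shuttle had slightly different shares in the libraries. Slc25a12, the form of muscle and brain, was at 173 and 195 RPM, and Slc25a13, the liver form, at 70.6 and 64.6 RPM. Slc25a12 took 71.1% (69.0 to 73.0) of the reads of both in the wildtype and 75.1% (73.3 to 76.9) in the knockout-labelled library. Slc25a12 has the longer exons. Per exon length, it was 1.27 times as high as Slc25a13 in the wildtype and 1.56 times in the other library. The shuttle enzymes showed no shared direction, with Got1 at 485 and 667 RPM, Mdh1 at 501 and 445 RPM, and Mdh2 at 788 and 785 RPM. Of these enzymes and Got2, 4 in all, 2 were above 0 in RPM (against 61.2% of all genes) and 1 when rescaled. At 2-fold 0 were apart, and the median was −0.0010 (−0.18 to −0.12 rescaled). Slc25a44, which moves branched-chain amino acids, and Slc25a15, the ornithine carrier, were level at 19.5 and 21.2 RPM and at 15.6 and 16.8 RPM. Slc25a2, a relative of Slc25a15, had 0 reads. The 7 measured amino acid carriers had a median of 0.12 (−0.06 to 0.00 rescaled).

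Of the ion carriers, the phosphate carrier was higher. Slc25a3 (chromosome 10, 91116578 to 91123963) was at 781 RPM in the wildtype and 986 RPM in the knockout-labelled library, a ratio of 1.26 (1.22 to 1.30, rescaled 1.11 to 1.16). Its ratio was close to that of Slc25a4, with which it serves ATP synthesis. Of all genes at 5 RPM or more, 71.1% had a lower log2 ratio than Slc25a3 and 73.7% a lower one than Slc25a4. Both log2 ratios were under the upper quartile of all these genes, 0.39. Slc25a28, the mitochondrial iron importer of most tissues, was at 43.9 and 53.5 RPM, a ratio of 1.22 (1.06 to 1.40). Slc25a37, the iron importer of red cell precursors, was at 6.54 and 5.36 RPM, a ratio of 0.819 (0.543 to 1.23). Erythroid markers summed to 197 and 178 RPM; their part in the Slc25a37 level was not tested.

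Of the carriers of cofactors, 3 of 8 had log2 ratios above 0 (against 61.2% of all genes), with a median of −0.34 (−0.49 to −0.44 rescaled). Of those below 0, Slc25a17 and Slc25a40 had intervals that held 1. Slc25a42, which brings coenzyme A into mitochondria (chromosome 8, 70184340 to 70212281), had 815 wildtype reads and 311 in the knockout-labelled library. These are 96.9 and 35.4 RPM, a ratio of 0.366 (0.320 to 0.417, rescaled 0.322 to 0.337), the lowest of the 31 carriers. Only 0.597% of all genes at 5 RPM or more had a lower log2 ratio. Slc25a16, also linked to coenzyme A, was at 22.4 and 17.2 RPM, a ratio of 0.770 (0.617 to 0.959). Slc25a17, a carrier of peroxisomes, was at 7.49 and 5.70 RPM, a ratio of 0.761 with an interval that held 1 (0.514 to 1.12).

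Slc25a39 was at 145 and 173 RPM, a ratio of 1.19 (1.10 to 1.28), while its relative Slc25a40 was at 5.59 and 4.22 RPM with an interval that held 1 (0.477 to 1.19). Slc25a40 has a processed copy at 96.3% identity. Slc25a26, which imports S-adenosylmethionine, and Slc25a32, linked to folate and flavin, were level at 12.0 and 12.1 RPM and at 5.11 and 5.36 RPM.

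Slc25a30, a relative of the uncoupling proteins (chromosome 14, 75761999 to 75787037), had 116 wildtype reads and 262 in the knockout-labelled library. These are 13.8 and 29.9 RPM, a ratio of 2.17 (1.73 to 2.72), and its log2 ratio of 1.06 was 0.89 to 0.95 rescaled, under the rule each time. Slc25a14, identical to it at 231 of 290 aligned positions, had 11 and 6 reads. Slc25a27, a further member of this branch, had 9 and 15 reads. Slc25a30 was therefore the one gene of the 3 with more than a few reads in this tissue.

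The uncoupling proteins proper carry other symbols and were outside the 44 genes. Ucp2 was at 191 RPM in the wildtype and 121 RPM in the knockout-labelled library, a ratio of 0.631 (0.584 to 0.683). Ucp3, of muscle, was at 83.2 and 6.84 RPM, a ratio of 0.0822 (0.0620 to 0.107), and Ucp1, of brown fat, had 0 reads in both. Mtch1 and Mtch2, carrier relatives of the outer membrane, were at 59.0 and 71.3 RPM and at 98.0 and 129 RPM. Mcart1, the older symbol of the NAD carrier gene, was level at 92.1 and 90.6 RPM. Of these relatives 5 were measured and 1, Ucp3, was at least 2-fold lower (against 2.37% of all genes). The 5 had a median of −0.02 (−0.21 to −0.14 rescaled). Ucp2 and Ucp3 thus stood below 1 while Slc25a30 stood above it.

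Of the 2 measured orphan carriers, Slc25a34 was lower and Slc25a46 was level in RPM. Slc25a34 (chromosome 4, 141618825 to 141623834) had 2536 wildtype reads and 1526 in the knockout-labelled library. These are 302 and 174 RPM, a ratio of 0.577 (0.541 to 0.615, rescaled 0.508 to 0.532), and 4.17% of all genes at 5 RPM or more had a lower log2 ratio. Slc25a46, a protein of the outer membrane tied to mitochondrial shape, was at 39.2 and 33.5 RPM, a ratio of 0.854 with an interval that held 1 (0.727 to 1.002) in RPM and lay below 1 under each rescaling. Its exons share 383 bases with a row on the opposite strand of the annotation. Slc25a35, a relative of Slc25a34, had 16 and 37 reads, but 31.3% of its exon length is shared with Rangrf on the opposite strand. Slc25a45 had 14 and 3 reads and Slc25a47 had 16 and 5, while Slc25a43 and Slc25a48 had 0 in both. Of the 13 carriers under 5 RPM in both libraries, 5 had no reads and 8 had few.

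**Figure D3:**
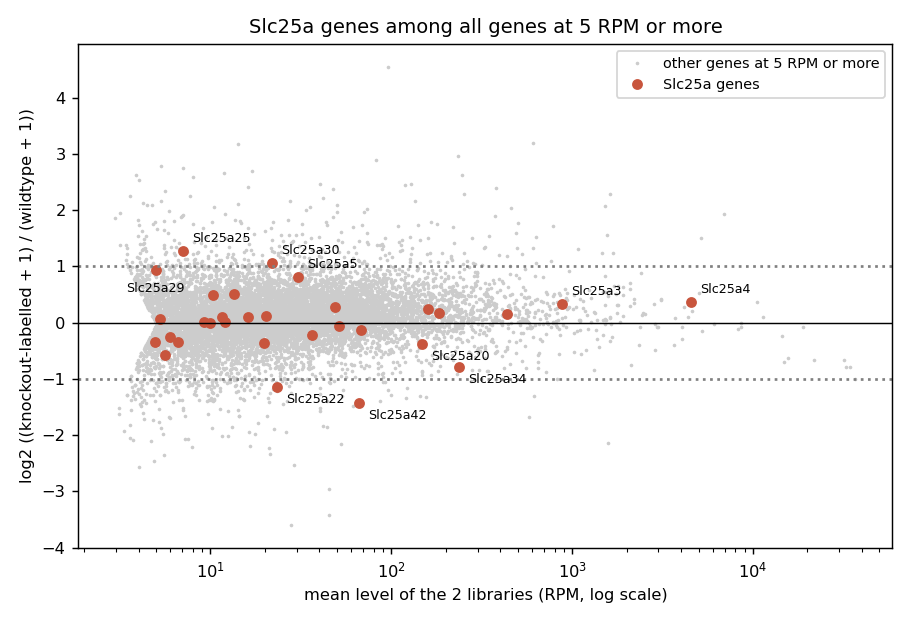
Log2 ratio with 1 RPM added (vertical) against the mean RPM of the 2 libraries (log axis, horizontal) for all 10209 genes at 5 RPM or more (grey) and the 31 SLC25 genes (red); dotted lines mark 2-fold. Slc25a4 and Slc25a3 lie at the abundant end slightly above 0, and the genes past a dotted line, Slc25a25, Slc25a30, Slc25a22 and Slc25a42, lie at middle or low levels.

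Genes that work beside the carriers mostly stayed within 2-fold. Of 13 users of adenine nucleotides and phosphate, 0 were at least 2-fold apart, 9 were above 0 (against 61.2% of all genes) and the median was 0.20 (0.02 to 0.08 rescaled). Ckmt2, the mitochondrial creatine kinase that takes ATP from the adenine nucleotide carrier, was at 1077 RPM in the wildtype and 1457 RPM in the knockout-labelled library, a ratio of 1.35 (1.32 to 1.39). Atp5g1, a subunit of the ATP synthase rotor, was at 180 and 245 RPM. Ppif, the cyclophilin that regulates the permeability pore, was lower at 165 and 109 RPM, a ratio of 0.660 (0.608 to 0.718). Slc25a4, Slc25a3 and Ckmt2 thus had RPM ratios from 1.26 to 1.35, while Ppif was below 1. Of the same list, Hk2 at 0.869 (0.8112 to 0.9307) and Atp5a1 at 0.9489 (0.9306 to 0.9675) were also below 1. Atp5b was level at 0.9834 (0.9662 to 1.0009).

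The mitochondrial pyruvate carrier, which belongs to another family, was higher in both subunits. Mpc1 was at 221 and 361 RPM, a ratio of 1.63 (1.54 to 1.73), and Mpc2 at 268 and 359 RPM, a ratio of 1.34 (1.27 to 1.41). With the sideroflexins, 3 of 5 measured genes were above 0 (against 61.2% of all genes) and the median was 0.21 (0.04 to 0.10 rescaled). Of 5 measured outer membrane channel and calcium uniporter genes 5 were above 0 in RPM (against 61.2% of all genes), although Vdac1 turned from 0.12 to −0.06 with the reduced total. The list was led by the channel gene Vdac2 at 223 and 340 RPM, with a median of 0.23 (0.05 to 0.12 rescaled); 7 of the 13 symbols chosen had no row under that name. On the import route of carriers, 9 of 12 genes were above 0 in RPM (against 61.2% of all genes) and 0 were at least 2-fold apart. Tomm40, the import pore, turned to −0.02 with the reduced total. Tomm70a, a receptor, was below 0 under each rescaling (−0.14 to −0.07). Timm8b, an intermembrane chaperone, was at 87.0 and 148 RPM and Tomm22, an import receptor, at 60.2 and 97.4 RPM. The median of the import route was 0.24 (0.07 to 0.13 rescaled).

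Beside the iron and glycine carriers, Alas1, the first enzyme of haem synthesis outside red cells, was at 65.2 and 132 RPM, a ratio of 2.02 (1.83 to 2.24). Cpox, a later enzyme of the same pathway, was lower at 35.7 and 19.8 RPM, and Fdxr, which passes electrons for iron-sulphur cluster synthesis, was at 5.47 and 10.1 RPM. Of 13 measured genes of mitochondrial iron and haem, 1, Alas1, was at least 2-fold higher (against 3.35% of all genes) and 0 lower. The log2 ratio of Alas1 was 0.82 to 0.89 rescaled, under the rule each time. The list had a median of 0.07 (−0.11 to −0.05 rescaled). Among 8 genes of glutathione and folate, Gss, which makes glutathione, was at 9.87 and 18.2 RPM. Aldh1l2, a mitochondrial folate enzyme, was at 5.94 and 2.05 RPM, the 1 gene at least 2-fold lower (against 2.37% of all genes). The median of this list was 0.05 (−0.13 to −0.06 rescaled).

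**Figure D4:**
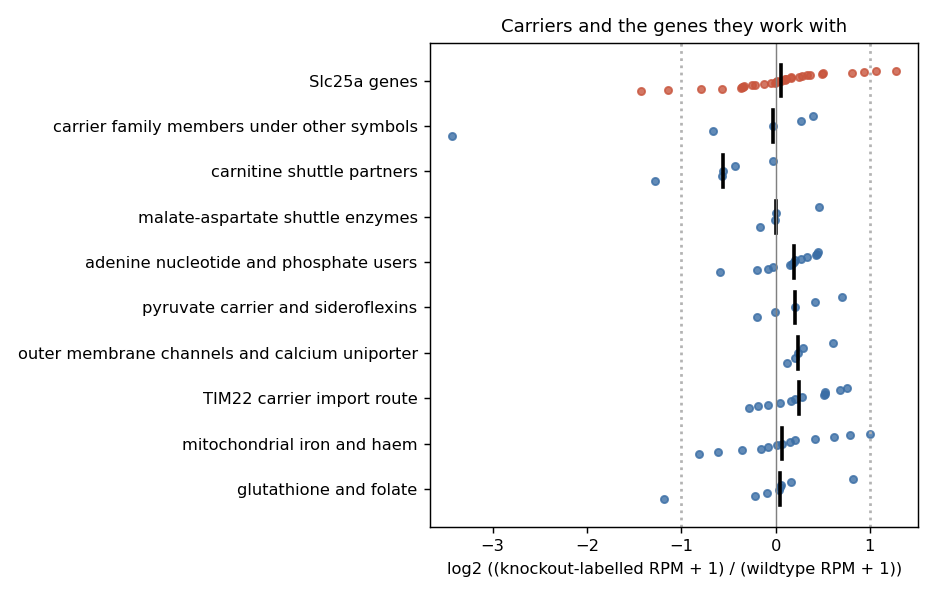
Log2 ratio with 1 RPM added for each measured SLC25 gene (red) and each measured gene of 9 lists of relatives and partners (blue); black bars are medians of each row, from 1 library a group, and dotted lines mark 2-fold. The carnitine shuttle row has its median at −0.56 and the carriers at 0.06, and Ucp3 is the point at the far left.

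Markers of other cell types in the ventricle also differed between the libraries. Macrophage markers summed to 156 RPM in the wildtype and 302 RPM in the knockout-labelled library. Of 7 measured, 2, C1qa and C1qb, were at least 2-fold higher (against 3.35% of all genes). C1qa fell under the rule with each rescaling (log2 ratio 1.10, 0.92 to 0.99 rescaled). Fibroblast markers summed to 570 and 498 RPM, with 4 of 8 at least 2-fold lower (against 2.37% of all genes). Dcn made 379 and 393 RPM of these sums and was level in RPM, as was Pdgfra. The median log2 ratio of the 8 was −0.92 (−1.09 to −1.03 rescaled). Smooth muscle and pericyte markers summed to 803 and 720 RPM, with 0 of 6 measured above 0 (against 61.2% of all genes). Endothelial markers summed to 638 and 642 RPM, with 0 of 8 apart by 2-fold. Adipocyte markers summed to 72.2 and 63.1 RPM with Ucp1 and Lep at 0 in both, and lymphocyte markers to 0.713 and 0.912 RPM with Ms4a1 at 0. Neutrophil markers summed to 2.26 and 16.0 RPM, of which S100a9 alone passed 5 RPM. Skeletal muscle markers summed to 319 and 746 RPM, of which Acta1 made 281 and 709 RPM, while Myh1 was level at 9.27 and 10.1 RPM and Myh2 at 23.5 and 23.0 RPM. Of 4 atrial markers only Nppa, which ventricular muscle can also make, passed 5 RPM, at 2868 and 10987 RPM. Their part in the level of any carrier was not tested.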

How the data were processed

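RNA was measured in 1 left ventricle library per group. Per the submitters' processing notes, the aligner was STAR and the builds mm10, also GRCm38. How reads were assigned to genes, by strand or with multiple matches, is not given in the sources used here. Per the file headers, the table the authors deposited holds raw read counts per gene and RPM values. The deposited RPM equal counts divided by the library total, within 5e-05. The authors' fold ratio and the authors' p-value, also deposited, were not used. Deposited starts count from 0 and are given plus 1.

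From the counts, ratios of RPM were computed with exact conditional binomial (Clopper-Pearson) intervals. Without molecular identifiers, reads are not independent molecules, and intervals and floors cover counting error only. The rule used a pseudocount of 1 RPM, a minimum of 5 RPM and 2-fold; it and the intervals were checked on simulated data. The members, classes and lists were chosen with earlier results of these data known. Every carrier at 5 RPM or more is named except 1, which is not reported here, with up to 3 genes of other lists by size of ratio; further genes named there, and examples in the marker paragraph, were chosen after their values were seen. Exon lengths, coding sequences and overlaps came from GENCODE M21 (GRCm38). Near-identical copies were other transcripts with at least 95% identity over 200 bases (BLAST 2.17.0). Alternatives were other pseudocounts, minimums, fold rules, lengths and 3 rescalings; leaving out rows with shared exons or copies was an alternative chosen after seeing the data. Software was Biopython 1.88, scipy 1.17.1, matplotlib 3.10.9, pandas 2.3.3, numpy 2.4.6 and Python 3.11.15.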

Additional observations from a re-analysis of the deposited data

How the results depend on the processing

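With 1 library a group, no replicate could be left out and no spread between animals is known. The count of carriers at least 2-fold higher, 2 in the report, was 1 under each rescaling, at a minimum of 20 RPM and without the 11 measured rows that share exons or have near-identical copies; it was 3 with a pseudocount of 0.1 RPM, 0 with one of 5 RPM, 0 at 3-fold and 4 at 1.5-fold. The count at least 2-fold lower, 2 in the report, was 1 with a pseudocount of 5 RPM and 0 at 3-fold, and stayed at 2 under the rescalings and minimums. Of all 10209 genes at 5 RPM or more, 342 were at least 2-fold higher and 242 lower in RPM. Rescaled by the median ratio, trimmed mean and reduced total in turn, 252, 251 and 223 were higher and 311, 315 and 362 lower. Shares of all genes at other pseudocounts, at other minimums and at 3-fold are not given here. The median of all carriers turned from 0.06 to −0.042 with division by the median ratio, −0.044 with the trimmed mean and −0.10 with the reduced total. The medians of all genes were then 0.0, −0.0025 and −0.063. For division by the median ratio, the trimmed mean and the reduced total in turn, class medians were 0.078, 0.076 and 0.015 for nucleotides, −0.49, −0.49 and −0.55 for carnitine, and 0.045, 0.042 and −0.022 for carboxylates. They were 0.0036, 0.0011 and −0.060 for amino acids, 0.16, 0.16 and 0.10 for ions, 0.95, 0.95 and 0.89 for Slc25a30, and −0.62, −0.62 and −0.69 for orphans. Cofactors moved to −0.44 with the trimmed mean, −0.49 with the reduced total and −0.21 with a pseudocount of 5 RPM, where Slc25a30 was at 0.89. Other minimums change which genes enter: nucleotides were 0.37 at 1 and at 20 RPM and 0.069 with none, the uncoupling protein relatives 0.39 at 1 RPM and with none, orphans −0.79 at 1 RPM and −0.22 with none, and amino acids −0.0056 at 20 RPM. The rescalings move each ratio by their own construction. With the reduced total 8 single carriers turned below 0: Slc25a11 to −0.022 and Slc25a12 to −0.015, whose intervals had lain above 1 in RPM, and Slc25a10, Slc25a15, Slc25a26, Slc25a32, Slc25a36 and Slc25a44, whose intervals held 1. Slc25a10, Slc25a15, Slc25a26, Slc25a32 and Slc25a36 were below 0 under the other rescalings too. The 10 highest genes per length were the same 10 with the longest transcript as length. Genes near 5 RPM rest on few reads, and their ratios are known least closely.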
